A study of Homo sapiens with 9 samples.

Results

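The libraries described here are those of mock-treated K-562 cells, the reference of a study of gene-expression editors. They were chosen by the treatment label alone and comprised 3 of the 9 libraries of the series. K-562 is a human leukaemia line grown in suspension, derived from chronic myeloid leukaemia and known for carrying the BCR-ABL1 fusion. All 9 libraries came from cells of 1 genotype, B2M tdTomato, named for the B2M gene and the red fluorescent protein tdTomato, and the labels do not say how they are joined. The other 6 libraries came from cells given a dCas9-based editor with a gRNA of full length or of 16 nt, and their values were not used. The labels call the treatment of the 3 libraries "Mock" and do not say what it contained or whether the replicates were separate cultures, so the spread given below is that between these 3 libraries and may be technical. As a model, K-562 is 1 long-cultured tumour line, and its levels are not those of normal marrow cells.

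Erythroid cells are built around the transcription factors GATA1, KLF1 and TAL1, which switch on globin, heme synthesis and red cell membrane genes. K-562 cells are known as an arrested progenitor that makes embryonic and fetal globins, takes up iron through the transferrin receptor and grows on the unrestrained ABL1 kinase, whose downstream factor STAT5 drives survival genes. A level is given as TPM, which divides each count by gene length and scales each library to the same total over all symbols. The length is the 1 deposited value per symbol, which need not be that of the transcript the cells make. Comparisons of level between genes carry this uncertainty, which the spread between libraries does not cover. A symbol was called on where it reached at least 1 TPM in each of the 3 libraries and off where it stayed under 0.1 TPM in each, and all other members are called low. Values printed 3 in a row are TPM in mock replicates 1, 2 and 3, and ± gives the SD over these 3 libraries (n = 3). With 1 group there was nothing to test, so the levels are descriptions with their spread. Low members are named after their values were seen.

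The 3 libraries held 25436995, 33260228 and 26471128 counts, and 28618 of 59653 symbols had a count in at least 1 of them. On in all 3 were 12098 of the 59653 symbols (20.3%), and among symbols that RefSeq lists as protein-coding 10288 of 19273 (53.4%), the backgrounds for every list below. A zero count allows a level of up to 3 counts, which on a gene of 3000 bases was 0.0815, 0.0626 and 0.0897 TPM. The short noncoding RNAs RN7SL1, RN7SL3 and RMRP took 50.4%, 48.7% and 43.4% of all TPM although they drew only 7.22%, 6.96% and 5.44% of counts. Without small noncoding and mitochondrial names in the total, each other gene's TPM would be 2.06, 2.01 and 1.81 times as high, an effect that leaves ratios between genes within a library as they are. Replicates correlated at Pearson's r of 0.993 to 0.995 across genes in log2 TPM, but each pair differed beyond counting noise, with a chi-square per degree of freedom of 11.99 to 28.2. The common biological coefficient of variation from edgeR was 10.4%.

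Counting in shared sequence sets a limit on some zeros. Of 313 symbols lying wholly inside same-strand exons of another symbol with at least 3000 counts, 300 stood at 0, and all 17 protein-coding symbols annotated on both X and Y, such as CSF2RA and IL3RA, stood at 0. Of 235 symbols wholly inside exons of the opposite strand, 91 stood at 0. A member is called shared below where at least 50% of its bases lie in same-strand exons of another symbol, where at least 50% of its 75-base windows recur in other genes, or where it lies on several chromosomes. That rule was set after values were seen. Of the 1138 list members found, 44 were shared, and 30 of these were not on.

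The erythroid and growth markers that define the line were high in every library. GATA1, the master erythroid factor, stood at 278, 321 and 299 TPM. TFRC, the transferrin receptor, stood at 166, 129 and 166 TPM. MYC, a growth regulator, stood at 108, 124 and 132 TPM. The ranges of GATA1 and TFRC did not overlap, and all 5 label markers, with the fetal globins HBG1 and HBG2, exceeded 100 TPM in each library. The submitters label the cell type as lymphoblast, whereas the B- and T-cell lists described below were nearly silent.

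The highest globin levels were those of HBG2 and HBB, of the beta cluster on chromosome 11. HBG2, a fetal gamma globin, stood at 1341, 1387 and 1111 TPM. HBB, the adult beta globin, stood at 1155, 1032 and 761 TPM. HBG1, the other fetal gamma globin, stood at 312, 323 and 206 TPM. HBG2 and HBB overlapped in range, HBG1 lay below both, and within the cluster HBG2 made up 49.97% ± 2.85 and HBB 38.0% ± 2.32 of TPM. HBB carried 18478, 21488 and 11052 counts and shares no same-strand exon with another symbol. HBD, the minor adult delta globin, (19.5, 18.4 and 12.9 TPM) and HBE1, the embryonic epsilon globin, (19.7, 12.6 and 13.8 TPM) were on at far lower levels and overlapped each other. HBG2 shares 55.6% of its bases with the symbol AC104389.6, named after values were seen, and HBE1 is shared too, so their levels are uncertain. HBG1 and HBG2 are close relatives, and the handling of multi-mapping reads is not given, so the split between them is uncertain as well.

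Of the alpha cluster on chromosome 16, HBQ1 and HBZ lay below HBB in every library, and the levels of the adult alpha copies are uncertain. HBQ1, the theta globin, stood at 91.4, 99.98 and 77.3 TPM. HBZ, the embryonic zeta globin, stood at 52.9, 61.9 and 28.9 TPM. HBA2 and HBA1, the adult alpha globins, stood at 6.996, 21.6 and 13.2 TPM and 2.73, 4.72 and 3.76 TPM. HBQ1 exceeded HBZ without overlap, and HBA2 exceeded HBA1 without overlap, but the alpha copies are nearly identical and both are shared. HBM, the mu globin, had 0, 1 and 0 counts. The summed beta cluster exceeded the summed alpha cluster by 18.5, 14.7 and 17.1 times (16.8 ± 1.90), a ratio that rests on the uncertain alpha copies.

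**Figure D1:**
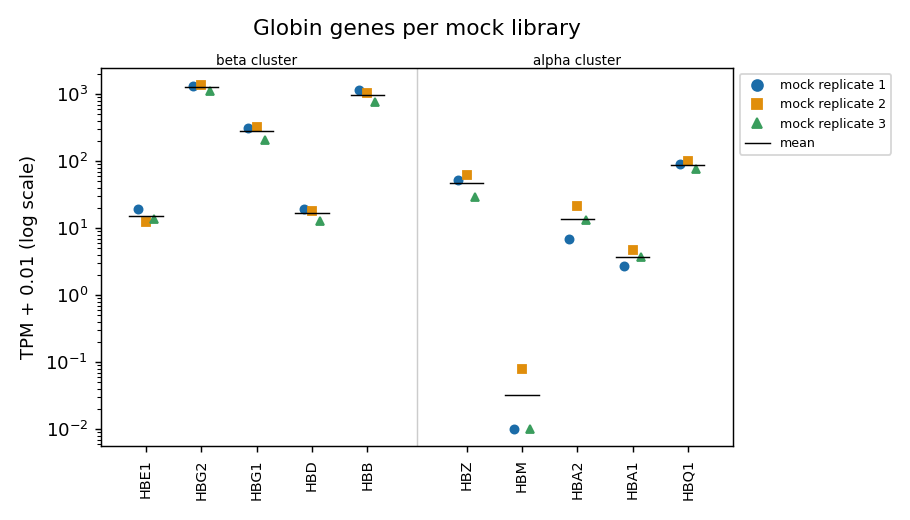
TPM + 0.01 on a log axis for the 5 beta cluster and 5 alpha cluster globin genes, 1 point per mock library with the mean as a line. HBG2 and HBB stand near 1000 TPM, while HBQ1, with the highest level listed in the alpha cluster, reaches at most 99.98 TPM.

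Of 18 erythroid transcription factors, 17 were on, with a list median of 48.8 TPM against 2.22 TPM over all protein-coding symbols. KLF1, the activator of red cell genes, stood at 337, 330.2 and 285 TPM. GATA2, the progenitor factor that GATA1 replaces during maturation, stood at 166, 189.6 and 217 TPM. LYL1, a close relative of TAL1, stood at 124, 128 and 109 TPM. KLF1 and GATA1 overlapped, and GATA1 exceeded GATA2 by 1.58 ± 0.180 times. NFE2 (93.8, 89.3 and 92.3 TPM), which acts on globin and platelet genes, LMO2 (87.3, 90.4 and 96.1 TPM) and LDB1 (70.2, 72.7 and 79.7 TPM), the bridging subunits of the GATA1 complex, and GFI1B (73.3, 75.9 and 62.4 TPM), a repressor, followed with overlapping ranges among several of them. BCL11A, the repressor of gamma globin, was on at only 1.96, 2.01 and 2.22 TPM and was chosen after its value was seen. FLI1, the factor that favours platelet precursors over red cells, had 0 counts in every library, which allows up to 0.0335 TPM.

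Heme synthesis was on throughout, with 9 of 9 enzymes. UROD (124, 122 and 147 TPM) and CPOX (105, 116 and 128 TPM), enzymes of the middle and late steps, were highest and overlapped. ALAS1, the housekeeping first enzyme, stood at 62.3, 64.8 and 76.0 TPM. ALAS2, its erythroid isozyme, stood at 49.3, 47.7 and 49.0 TPM. ALAS1 thus exceeded the erythroid form in every library, by 1.39 ± 0.146 times. FECH, which inserts the iron, stood at 30.1, 29.2 and 33.1 TPM.

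Iron genes were on for 17 of 18 members and held the most abundant protein-coding RNA of the libraries. FTL, the ferritin light chain, stood at 11833, 13751 and 11049.6 TPM. FTH1, the ferritin heavy chain, stood at 2969.9, 2905 and 2715 TPM. FTL exceeded FTH1 by 4.26 ± 0.410 times. PCBP1 (479.9, 504 and 591 TPM), an iron chaperone, and NCOA4 (429, 398 and 469 TPM), which delivers ferritin for breakdown, followed. FTH1 and PCBP1 have 63.2% and 73.2% of their bases in exons of the opposite strand, and whether strand was used in counting is not settled. TFR2, the second transferrin receptor, stood at 38.8, 35.6 and 41.3 TPM, and TFRC exceeded it by 3.98 ± 0.333 times. HAMP, the liver hormone that limits iron uptake, was off with 0, 2 and 0 counts.

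Among 25 red cell membrane proteins 20 were on, 4 low and 1 off. RHAG, the Rh-associated glycoprotein, stood at 436, 343 and 462 TPM. GYPC, glycophorin C, stood at 188, 191 and 177 TPM. SPTB, the beta spectrin of the membrane skeleton, stood at 78.1, 83.4 and 85.6 TPM. Of the glycophorins, GYPE (78.6, 77.6 and 91.5 TPM) exceeded GYPB (16.7, 18.6 and 22.4 TPM), and these are close relatives whose reads can be hard to assign. SLC4A1, the band 3 anion exchanger of mature red cells, was low at 0.652, 0.696 and 0.350 TPM. EPB42, its partner protein 4.2, was low at 0.222, 0.0854 and 0.184 TPM. CD44, an adhesion receptor, was off with 0, 3 and 0 counts.

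Genes of late maturation were split. BLVRB, the biliverdin reductase, stood at 440.4, 439 and 376 TPM. PRDX2, a red cell peroxide scavenger, stood at 329, 325 and 292 TPM. PKLR, the pyruvate kinase of liver and red cells, stood at 203, 234 and 201 TPM. These were among 8 members on, while 3 were off: CA1, carbonic anhydrase 1, with 1, 1 and 0 counts, ALOX15, the lipoxygenase of reticulocytes, with 0, 1 and 1 counts, and AHSP, the chaperone of alpha globin, with 0, 0 and 0 counts. Over the globin, factor, heme, membrane and late lists together, 63 of 74 members were on, 5 low and 6 off.

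Promoter sequence was read from RefSeq (GRCh38.p14) for 47 of these 74 members, as the 250 bases before the start. The GATA motif was searched as AGATAA or TGATAA on both strands, which on the opposite strand read TTATCT and TTATCA. It occurred in 13 of 43 promoters of members that were on (30.2%), in 1 of 4 of those that were not, and in 14.9% of all 27305 promoters. For protein-coding symbols it occurred in 6.63% of 8447 promoters of those on and in 16.1% of 6679 of those not on. A match is a description of letters and not a bound site. The promoters of the 3 members with the highest mean TPM among those with a match are shown, with the matches in capitals, since they place the motif in genes that were high in all 3 libraries. All 3 lie on the minus strand, RHAG at chr6:49636840-49637089, KLF1 at chr19:12887202-12887451 and PKLR at chr1:155301439-155301688, and are written 5′ to 3′ along the gene.
RHAG: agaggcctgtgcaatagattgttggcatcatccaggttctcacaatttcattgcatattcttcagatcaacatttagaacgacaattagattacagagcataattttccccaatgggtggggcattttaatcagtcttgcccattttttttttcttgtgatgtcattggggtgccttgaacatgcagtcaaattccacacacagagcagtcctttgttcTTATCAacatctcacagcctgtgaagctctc
KLF1: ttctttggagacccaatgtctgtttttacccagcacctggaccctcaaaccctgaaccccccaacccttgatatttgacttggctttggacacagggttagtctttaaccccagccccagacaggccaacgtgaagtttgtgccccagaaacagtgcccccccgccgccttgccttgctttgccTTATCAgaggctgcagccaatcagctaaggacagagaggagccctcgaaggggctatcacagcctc
PKLR: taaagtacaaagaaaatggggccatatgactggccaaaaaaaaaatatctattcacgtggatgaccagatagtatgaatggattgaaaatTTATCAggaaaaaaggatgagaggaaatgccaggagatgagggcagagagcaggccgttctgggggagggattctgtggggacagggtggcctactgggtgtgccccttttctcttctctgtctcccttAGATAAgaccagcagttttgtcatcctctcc
RHAG and KLF1 hold 1 match each, both in the part of the window nearest the start, and PKLR holds 2.

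Markers of other mature blood cells were almost all silent. Over the monocyte, neutrophil, B-cell, T-cell and NK-cell lists, 4 of 71 members were on, 16 low and 51 off, and 28 had 0 counts in all 3 libraries. Those that were on included CEBPB (98.8, 118 and 104 TPM) and CEBPA (6.55, 7.54 and 9.38 TPM), myeloid transcription factors that other tissues use as well, and TCF7 (1.92, 2.22 and 2.28 TPM), a T-cell and WNT factor. Defining genes of these lineages had 0 counts, among them MPO and ELANE of neutrophil granules, CD163 of macrophages, MS4A1 of B cells, CD2 and CD8A of T cells and GZMB and NKG7 of NK cells. Without replicate 1, 2 of 15 T-cell members were on in place of 1.

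The platelet branch was weak. Of 23 megakaryocyte and platelet members, 2 were on, 7 low and 14 off. CD9, a tetraspanin, stood at 5.05, 4.59 and 7.09 TPM. ITGA2B, the alpha chain of the fibrinogen receptor, stood at 3.46, 3.52 and 4.36 TPM. Its partner ITGB3 was low at 0.129, 0.0790 and 0.0708 TPM, and VWF and GP1BA had 0 counts. With small noncoding names left out of the total, 4 members were on.

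Among stem and progenitor genes, 3 of 14 were on. SPN, the leukosialin CD43, stood at 51.8, 46.0 and 49.5 TPM. MECOM (3.52, 3.12 and 3.81 TPM) and MEIS1 (1.22, 1.41 and 2.00 TPM), stem cell transcription factors, were on at low level. CD34, FLT3 and HOXA9 had 0 counts, and KIT, the stem cell factor receptor, was low at 0.161, 0.191 and 0.194 TPM. In the mast cell and basophil list, besides GATA2, FCER1A, the alpha chain of the IgE receptor, (6.30, 6.93 and 8.86 TPM) and PRG2, the granule major basic protein, (5.30, 4.14 and 7.05 TPM) were on, while CPA3, MS4A2 and CLC had 0 counts.

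Some members of the lists for tissues outside blood were high, though a listed gene need not be limited to its tissue. VIM, the intermediate filament vimentin, of the fibroblast and mesenchymal list, stood at 1486, 1476 and 1301 TPM. KRT19, KRT18 and KRT8, keratins of simple epithelia, stood at 124, 129 and 112 TPM, 98.4, 96.2 and 92.0 TPM and 54.6, 58.0 and 58.7 TPM. EPCAM, the epithelial adhesion molecule, stood at 34.0, 37.4 and 41.0 TPM. These keratins and EPCAM were among 8 of 15 epithelial members that were on (53.3%), a share near the 53.4% of all protein-coding symbols. CDH1, E-cadherin, was low at 0.0801, 0.133 and 0.103 TPM, and KRT5 and KRT14 had 0 counts. EGFL7 (201, 197 and 245 TPM), a secreted vessel factor, was the only endothelial member of 10 that was on, and CDH5, KDR and TEK had 0 counts. DES, the muscle filament desmin, stood at 55.5, 56.2 and 60.7 TPM with MYOD1 and MYOG at 0 counts. AFP, the fetal liver protein, stood at 18.2, 16.6 and 25.6 TPM and HNF4A, a liver factor, at 3.72, 3.41 and 4.11 TPM, with FGB, SERPINA1 and TTR at 0 counts.

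Fetal RNA-binding genes were on without the pluripotency factors. HMGA1, a chromatin protein of embryonic and tumour cells, stood at 1557, 2079 and 2079 TPM. IGF2BP1 (75.7, 75.4 and 85.7 TPM), IGF2BP2 (45.1, 43.8 and 52.96 TPM) and IGF2BP3 (13.01, 11.9 and 16.4 TPM), which bind fetal mRNAs, and LIN28B (36.6, 33.1 and 46.5 TPM), which blocks let-7 maturation, were on. NANOG, SOX2 and SALL4 had 0 counts, and POU5F1 had 1, 1 and 1. LIN28A, the paralog of LIN28B, was off with 1, 1 and 0 counts.

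Cancer-testis genes, silent in most adult tissues, were on for 11 of 26 members. PRAME stood at 472, 469 and 557 TPM. CTAG2 stood at 170.4, 186 and 198 TPM. MAGEB2 stood at 100.3, 99.6 and 104 TPM. The 3 ranges did not overlap, and MAGEA4, MAGEA3, MAGEA1, CTCFL and MAGEA6 followed between 38.6 and 92.3 TPM. CTCFL is the germline relative of the insulator protein CTCF. Of the meiotic genes, SYCP1, DAZL and BRDT had 0 counts, whereas SYCE1 was on at 5.64, 8.01 and 8.22 TPM. SYCE1 is named after its values were seen, and 56.7% of its bases lie in exons of the opposite strand. CTAG1B, which is shared with its copy, stood at 0.

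HOX genes, which record position and differ between blood stages, were on for 14 of 39 members and in 3 of 4 clusters. HOXB9 (38.4, 40.4 and 42.3 TPM), HOXB4 (29.5, 34.3 and 35.9 TPM) and HOXB2 (23.4, 30.4 and 30.2 TPM) were the highest. HOXD4 stood at 12.98, 16.5 and 16.5 TPM but is shared, and HOXC9 stood at 5.18, 5.68 and 5.66 TPM. All 11 HOXA genes were off, with 1 count each in replicate 2 for HOXA2 and HOXA5. HOXB4 and HOXB7 were on while HOXB5 between them in the cluster had 0 counts.

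In metabolism, 198 of 249 members were on. Most steps of glycolysis had 1 leading isozyme. HK1, the general hexokinase, stood at 376, 355 and 425 TPM. HK2, the form of muscle and tumours, stood at 166, 166 and 215 TPM. HK1 exceeded HK2 by 2.13 ± 0.140 times, and HK3 was off. PFKL, the liver-type phosphofructokinase, exceeded PFKP, the platelet type, by only 1.07 ± 0.0125 times, in every library. The muscle type PFKM gave 11.1% ± 0.485 of the family's TPM.

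ALDOC, the brain-type aldolase, stood at 438, 442 and 409 TPM. ALDOA, the general form, stood at 215, 350.2 and 304 TPM. ALDOC thus exceeded ALDOA in each library, by 1.55 ± 0.423 times. ENO1 (2575, 2393 and 2358 TPM) exceeded ENO2 (19.1, 19.7 and 22.6 TPM), the neuronal enolase, and ENO3 (3.91, 3.52 and 3.85 TPM), the muscle form, and gave 99.0% ± 0.113 of the family. PKM stood at 562.3, 582 and 610.5 TPM, and PKLR, the red cell form, gave 26.7% ± 1.96 of pyruvate kinase TPM. LDHA, which favours lactate, stood at 932, 974 and 1040.1 TPM. LDHB, the heart form, stood at 73.9, 69.4 and 88.8 TPM, so LDHA gave 92.7% ± 0.617 of the family. The glucose carriers SLC2A1 (176, 170.2 and 149 TPM) and SLC2A3 (139, 126 and 192 TPM) overlapped, with SLC2A3 higher than SLC2A1 in replicate 3 only.

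**Figure D2:**
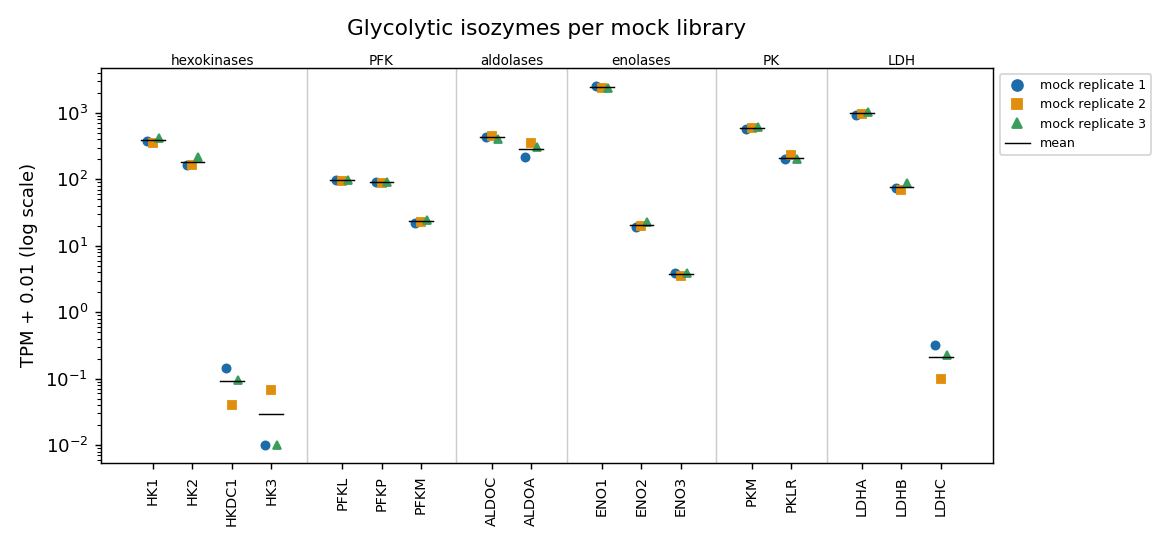
TPM + 0.01 on a log axis for 17 isozymes of 6 glycolytic steps, 1 point per mock library with the mean as a line. ENO1, LDHA and PKM lead their families, and ALDOC lies above ALDOA in each library.

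Of 6 gluconeogenesis members 3 were on and 3 off. PCK2, the mitochondrial PEP carboxykinase, stood at 199.6, 194 and 189 TPM and exceeded its cytosolic relative PCK1 (2.57, 2.07 and 2.23 TPM) by 85.4 ± 7.90 times. FBP1, which removes a phosphate from fructose bisphosphate, and G6PC, which releases glucose, had 0 counts. The pentose phosphate pathway was on for 7 of 8 members, led by PGD (350.2, 349 and 399.7 TPM), and TKTL1 was off. All 19 citric acid cycle members were on, from MDH2 (307, 349 and 329 TPM) downward. IDH2, mitochondrial, and IDH1, cytosolic, overlapped at 142, 144 and 139.6 TPM and 116, 114 and 151 TPM. Cytochrome c oxidase was on in its general isoforms: COX4I1 stood at 127, 141 and 163 TPM and COX6A1 at 94.1, 137 and 145 TPM, while COX4I2, COX6A2 and COX7A1 had 0 counts.

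Genes of glutamine and asparagine were on for 15 of 16 members, those of serine, glycine and one-carbon units for 17 of 19, and those of arginine and the urea cycle for 6 of 10. SLC1A5, the glutamine carrier, stood at 581, 592 and 609.5 TPM. SLC7A5, which exchanges glutamine for leucine, stood at 333, 372 and 349 TPM. MTHFD2, a mitochondrial folate enzyme, stood at 523, 515 and 591 TPM. PSAT1 (361, 353 and 446 TPM) and PHGDH (243, 260.2 and 270.3 TPM), of serine synthesis, were on, and SHMT2 exceeded its cytosolic relative SHMT1 by 15.6 ± 0.718 times. GLDC, which splits glycine, had 0 counts. ARG2, the mitochondrial arginase, stood at 442, 368 and 396 TPM, whereas ARG1, the liver arginase, and OTC had 0 counts. ASS1, which makes arginine from citrulline with ASL, stood at 289, 281 and 336 TPM, and NOS3, the endothelial nitric oxide synthase, at 23.7, 25.2 and 20.98 TPM.

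Lipid synthesis was on without gaps in the cholesterol list. All 18 members were on with a median of 123 TPM, among them INSIG1, the sterol sensor, at 327, 354 and 419.7 TPM, and FDFT1, which commits to squalene, at 313, 299 and 339 TPM. SCD, the stearoyl desaturase, stood at 1045, 1005 and 1198 TPM, and FASN, the fatty acid synthase, at 391, 409 and 443 TPM. Nucleotide synthesis was on for 22 of 23 members, led by IMPDH2 (271, 272 and 298 TPM), the guanine step, and TK1 (215, 238 and 235 TPM), the thymidine kinase. Among nucleoside phosphorylases, PNP stood at 46.4, 42.3 and 51.8 TPM, and MTAP, which salvages methylthioadenosine, was off with 0, 1 and 0 counts. In drug metabolism, GSTP1 (558, 588 and 435 TPM) and NQO1 (170.1, 168 and 174 TPM) were high, while CYP1A2, CYP1B1, CYP3A4 and GSTM1 had 0 counts and ABCB1, the multidrug pump, had 0, 2 and 1.

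The 15 mitochondrially encoded members were all on but spread more than others, with a median CV of 38.1%. MT-CO1, subunit 1 of the oxidase, stood at 914, 1070.3 and 981 TPM. MT-ATP6, an ATP synthase subunit, stood at 230.1, 651 and 748 TPM. MT-ND4, a complex I subunit, stood at 198, 393 and 450.4 TPM. Replicate 1 was the lowest for each of these 3, and mitochondrially encoded names took 0.163%, 0.274% and 0.230% of counts. None of the 15 was shared by the rule above. The pseudogene MTATP6P1 on chromosome 1, named after its values were seen, stood at 55.2, 171 and 156 TPM. The handling of multi-mapping reads is not given, so the split between MT-ATP6 and this pseudogene is uncertain.

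Signalling members were on for 215 of 308. Reads of the BCR-ABL1 fusion are counted under either partner. ABL1, the kinase, stood at 131, 135 and 142 TPM. BCR, the fusion partner, stood at 42.6, 44.4 and 40.2 TPM. ABL1 exceeded BCR by 3.22 ± 0.283 times. Of the adaptors that the kinase modifies, CRKL stood at 307, 307 and 358 TPM and GAB2 at 173, 169 and 211 TPM. DOK2 had 0 counts.

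Known targets of STAT5 were on, and 1 of them was among the most abundant RNAs. PIM1, a survival kinase induced by STAT5, stood at 2361, 2631 and 2976 TPM. CISH, a feedback inhibitor of cytokine receptors, stood at 164, 193 and 188 TPM. BCL2L1, the survival gene that encodes BCL-XL, stood at 159, 181 and 212 TPM. PIM1 was among the 15 symbols with the highest mean TPM and exceeded PIM3 by 28.97 ± 3.70 times. SOCS1 (98.8, 135 and 117 TPM), SOCS2 (62.3, 67.8 and 90.9 TPM) and SOCS3 (29.6, 37.3 and 43.6 TPM), further feedback inhibitors, were on, so that 10 of 11 target and feedback genes were on and OSM, a cytokine, was low. STAT5B (86.1, 87.0 and 109.8 TPM) exceeded STAT5A (54.8, 50.3 and 62.2 TPM) by 1.69 ± 0.104 times. JAK1 stood at 24.1, 20.97 and 25.4 TPM, JAK2 at 16.6, 14.2 and 21.3 TPM and TYK2 at 31.6, 28.8 and 32.4 TPM, while JAK3 was low.

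The STAT motif TTCNNNGAA, which reads the same on both strands, was searched in the same 250-base windows. It occurred in 1 of the 8 target and feedback genes with a promoter entry, against 6.78% of all 27305 promoters. That 1 promoter is CISH, with 4 matches, a number that 4 of the 27305 promoters reach or exceed, CISH included. It is shown for this run of matches, in capitals, from chr3:50611775-50612024 (GRCh38.p14, minus strand).
CISH: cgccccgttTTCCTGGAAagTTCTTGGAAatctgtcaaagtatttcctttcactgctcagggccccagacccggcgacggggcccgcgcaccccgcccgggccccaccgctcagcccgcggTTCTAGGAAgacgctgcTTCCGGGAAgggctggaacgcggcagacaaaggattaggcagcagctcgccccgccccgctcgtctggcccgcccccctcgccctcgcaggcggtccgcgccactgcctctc
The matches fall in 2 pairs, 1 at the far end of the window and 1 near its middle.

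Of 20 haematopoietic cytokine receptors 10 were on, a share near the 53.4% of all protein-coding symbols. IFNGR2 (24.4, 20.3 and 24.9 TPM), an interferon gamma receptor chain, was highest, and EPOR, the erythropoietin receptor, stood at 17.6, 17.8 and 16.0 TPM. CSF1R, CSF2RB and CSF3R, of the myeloid factors, were off, and CCR7 had 0 counts. CSF2RA and IL3RA stood at 0 but are shared. CXCR4, the marrow homing receptor, was low at 0.111, 0.0851 and 0 TPM. Of 30 receptor tyrosine kinases 11 were on, led by EPHB4 (65.8, 63.3 and 66.6 TPM), an ephrin receptor, and FGFR4 (55.6, 62.3 and 61.8 TPM). IGF1R stood at 8.83, 10.1 and 11.2 TPM and INSR at 4.18, 4.03 and 3.89 TPM, while FLT3, KDR, TEK and ROS1 had 0 counts and EGFR had 3, 5 and 9.

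The RAS cascade was on for 17 of 19 members. NRAS (103, 91.8 and 117 TPM) exceeded HRAS (27.8, 26.8 and 29.8 TPM), and their ranges did not overlap. MAPK3, the ERK1 kinase, stood at 39.4, 39.8 and 36.3 TPM. DUSP6, the ERK phosphatase that ERK induces, was low at 0.0211, 0.0811 and 0.186 TPM. In the PI3 kinase list, DDIT4, an inhibitor of mTOR induced by stress, stood at 1434, 1683 and 1534 TPM. INPP5D, the phosphatase SHIP1, had 0, 1 and 0 counts.

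Of 26 TGF-beta and BMP members 20 were on. TGFB1 (129, 154 and 154 TPM) and INHBE (92.9, 86.3 and 76.3 TPM) were the highest ligands and TGFBR1 (56.8, 55.7 and 77.6 TPM) the highest receptor. TGFBR2, which TGF-beta binds first, was low at 1.11, 0.923 and 1.15 TPM, crossing 1 TPM in replicates 1 and 3. SMAD5 was on at 8.93, 8.001 and 9.92 TPM while SMAD1, its close relative, had 0, 1 and 0 counts. In the WNT list 16 of 24 were on, mainly receptors and effectors such as LRP5 (46.4, 45.2 and 43.3 TPM) and FZD5 (28.5, 28.3 and 32.0 TPM). Of the 5 WNT ligands listed, WNT10B was on at 5.55, 6.28 and 7.18 TPM, and WNT1, WNT3A, WNT5A and WNT5B were off. HES1, a NOTCH target, stood at 90.3, 105 and 102 TPM, and JAG2 (32.5, 33.2 and 39.4 TPM) exceeded JAG1 (5.57, 5.56 and 5.91 TPM). In the Hedgehog list SMO (9.74, 9.65 and 11.8 TPM) was highest, and the ligands SHH and IHH had 0 counts. In the NF-kB list 14 of 17 were on, with NFKB2 at 42.6, 45.6 and 45.8 TPM and CXCL8, the chemokine interleukin-8, at 26.1, 28.9 and 41.4 TPM, while TNF and IL1B had 0 counts.

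Cell cycle and survival genes were on for some family members and not for others. CCND2 (71.5, 64.5 and 78.3 TPM) and CCND3 (61.3, 62.0 and 59.9 TPM) were the D-type cyclins, and CCND1 was low at 0.240, 0.355 and 0.245 TPM. MYC was accompanied by MYCL (2.91, 3.74 and 3.49 TPM), and MYCN was off. BCL2L1 exceeded MCL1 by 2.77 ± 0.197 times and BCL2 by 34.7 ± 2.67 times. GADD45A, a growth arrest gene, stood at 146, 159.6 and 204 TPM, CDKN1A, the p21 inhibitor, at 17.3, 17.3 and 15.3 TPM, and FAS was off with 2, 1 and 4 counts.

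Of 10 CDK inhibitors and pocket proteins, 8 were on. CDKN1B, p27, stood at 67.3, 71.2 and 79.4 TPM. CDKN2A and CDKN2B, the p16 and p15 inhibitors, had 0 counts in every library, which allows up to 0.0622 and 0.0673 TPM. K-562 is known as a line without these genes. They lay in a run of 25 consecutive protein-coding symbols that were off, from HACD4 to TUSC1 on chromosome 9 (GRCh38, 20999509 to 25678440). Over all 3 libraries the run held 6 counts, 21 of its symbols had none, and the 4 with a count were HACD4, KLHL9, MTAP and DMRTA1. HACD4 and KLHL9 are named after their values were seen. FOCAD before the run was low at 0.487, 0.593 and 0.840 TPM and CAAP1 after it was on at 11.3, 12.05 and 14.03 TPM. The run also holds the type I interferon genes, which are silent in unstimulated cells of many kinds. Some of them are close copies: IFNA1 is shared, whereas IFNB1 is not. RNA counts do not tell a lost gene from a silent one.

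Antigen presentation was uneven. B2M, the light chain of MHC class I, stood at 42.0, 37.7 and 46.7 TPM in these cells of B2M tdTomato genotype. HLA-E, a ligand of NK receptors, stood at 44.9, 49.6 and 56.5 TPM. HLA-C stood at 8.78, 7.67 and 9.41 TPM. HLA-E and B2M overlapped in TPM, and HLA-E exceeded HLA-C by 5.86 ± 0.685 times. The overlap rests on deposited lengths of 7141 bases for B2M and 2922 for HLA-E. In counts B2M was higher, with 3681, 4304 and 3718 against 1610, 2313 and 1840. HLA-B was on at 1.66, 2.01 and 1.44 TPM. HLA genes are polymorphic and closely related, so the counts of single HLA symbols are uncertain. CALR (1473, 1645 and 1657 TPM) and CANX (679, 722 and 842 TPM), chaperones of the endoplasmic reticulum, were high, and TAP1, the peptide carrier, stood at 13.7, 12.4 and 13.4 TPM. Of the immunoproteasome subunits, PSMB9 (3.05, 2.91 and 4.60 TPM) and PSMB10 (2.16, 1.23 and 1.43 TPM) were on and PSMB8 was off. The class I activator NLRC5 was off as well.

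No MHC class II member of 12 was on. HLA-DRA, HLA-DRB1 and CD74 had 0 counts, and CIITA, their master regulator, named after its values were seen, had 0, 8 and 2. Of 15 NK ligand genes 10 were on, among them BAG6 (285, 282 and 302 TPM), ICAM1 (75.4, 66.7 and 71.5 TPM), MICB (57.6, 54.4 and 57.0 TPM), NECTIN2 (48.4, 51.6 and 47.8 TPM) and MICA (18.4, 16.5 and 19.2 TPM). CD274, which encodes PD-L1, was off with 1, 0 and 0 counts. Among innate sensors, MAVS (32.0, 28.98 and 33.9 TPM) and EIF2AK2 (12.9, 12.4 and 15.6 TPM) were highest of 5 on, and TLR1, TLR7, TLR8 and AIM2 had 0 counts.

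Interferon-stimulated genes ranged from high to silent. IFITM1, a membrane barrier to viruses, stood at 509, 588 and 708 TPM. BST2, tetherin, stood at 286, 353 and 372 TPM. ISG15, a ubiquitin-like modifier, stood at 43.0, 39.6 and 33.2 TPM. IFITM3 (6.16, 5.98 and 6.86 TPM) and IFI6 (3.48, 3.50 and 2.45 TPM) lay lower. In contrast MX1, IFIT1, IFIT2 and OASL had 0 counts, and the interferon genes IFNB1 and IFNL1 had 0 counts too. Of the 25 members, which include interferon genes themselves, 7 were on, 3 low and 15 off.

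Noncoding RNA was dominated by RN7SL1, which belongs to the signal recognition particle that targets proteins for export. RN7SL1 stood at 385222, 363322 and 318016 TPM. RMRP, the RNA of the mitochondrial RNA processing enzyme, stood at 36899, 27362 and 20152 TPM. SCARNA5, a Cajal body RNA, stood at 561, 365 and 499 TPM. RN7SL1 is shared with its near-identical copies. RN7SL2, RN7SK and RPPH1 stood at 0, but each is shared, so these zeros are not read as silence. Of 29 long noncoding RNAs found, 15 were on (51.7%), against 438 of 4357 symbols (10.1%) that RefSeq lists as long noncoding. MALAT1, a nuclear RNA, stood at 734, 642 and 1298 TPM, with replicate 3 above the others. H19, the imprinted fetal RNA, stood at 219, 263 and 215 TPM and exceeded NORAD by 2.61 ± 0.354 times. HOTTIP had 0 counts, and MEG3, the other well-known imprinted RNA of growth control, had 0, 2 and 0. Of 20 snoRNA host genes 19 were on, with GAS5 at 118, 123 and 255 TPM.

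Mature microRNAs are far shorter than the RNA that such libraries capture, so only their host transcripts were read. Of the hosts examined, 17 in all, 5 were on and held 12 miRNA genes: MCM7 (244, 253 and 317 TPM), H19, MIR210HG (8.01, 10.7 and 11.98 TPM), MIR17HG (3.93, 2.59 and 5.85 TPM) and MIR22HG (1.80, 1.32 and 3.22 TPM). MIR155HG, MIR124-1HG and MIR181A1HG had 0 counts, and MIR100HG, a host of let-7 and miR-125b, had 1, 0 and 0. The mature miRNAs with a seed found in both MIR17HG and MCM7 are shown, since 2 separate hosts carry the same seeds. Sequences are from RefSeq (GRCh38.p14), 5′ to 3′, with the seed, bases 2 to 8, in capitals.
hsa-miR-17-5p of MIR17HG: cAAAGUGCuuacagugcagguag
hsa-miR-20a-5p of MIR17HG: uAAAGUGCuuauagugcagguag
hsa-miR-106b-5p of MCM7: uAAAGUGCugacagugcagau
hsa-miR-93-5p of MCM7: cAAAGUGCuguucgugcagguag
hsa-miR-92a-3p of MIR17HG: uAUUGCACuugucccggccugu
hsa-miR-25-3p of MCM7: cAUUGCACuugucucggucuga
The first 4 share the seed AAAGUGC, and miR-92a and miR-25 share AUUGCAC.

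Chromatin members were on for 47 of 52. TRIM28, the corepressor of KRAB zinc finger proteins, stood at 384, 391 and 338 TPM. DNMT1, the maintenance DNA methyltransferase, stood at 67.3, 64.5 and 80.4 TPM. DNMT3B (22.1, 22.1 and 27.8 TPM) exceeded DNMT3A (10.1, 11.4 and 15.5 TPM), and DNMT3L was low at 0.307, 0.269 and 0.193 TPM. Of the demethylating TET enzymes, TET3 (38.5, 43.2 and 45.2 TPM) and TET1 (31.0, 30.4 and 35.5 TPM) exceeded TET2 (3.92, 3.26 and 4.32 TPM). EZH2, the Polycomb methyltransferase, stood at 32.1, 32.2 and 47.0 TPM. Replication-dependent histones, whose mRNAs end without a poly(A) tail, were on for 14 of 17 members with a median of 326 TPM, led by H1-2 (3501, 3794 and 3558 TPM) and H3C2 (2109.8, 2375 and 1657 TPM).

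By level, the 15 highest symbols were RN7SL1, RN7SL3 and RMRP, then FTL, EEF1A1, RPL13A, EEF2, H1-2, SLC25A5, ACTG1, SNORA73B, GAPDH, FTH1, PIM1 and RPL8. Besides SNORA73B, a small nucleolar RNA, the 3 short noncoding RNAs at the top, iron storage and PIM1, these are translation factors and ribosomal proteins, the ADP carrier SLC25A5, gamma actin, a linker histone and a glycolytic enzyme. EEF1A1, elongation factor 1 alpha, stood at 4977, 5174 and 5514 TPM and took the largest mean share of counts after RN7SL1, although RN7SL3 had more counts in replicate 2. EEF2, elongation factor 2, stood at 3894, 3931 and 3859.6 TPM with a CV of 0.911%.

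The spread between libraries was 13.2% as the median CV over 10717 symbols with a mean count of at least 100. The 10 most variable symbols were MT-RNR1, MT-RNR2, TXNIP, AL138963.3, TSPOAP1, MAPK8IP3, MT-ATP8, CDK5RAP3, GOLGA8A and DDX39B. MT-RNR1 and MT-RNR2, the mitochondrial ribosomal RNAs, stood at 11.96, 70.0 and 8.84 TPM and 12.3, 65.0 and 9.497 TPM, with replicate 2 above both others. TXNIP, an inhibitor of thioredoxin and of glucose uptake, stood at 29.3, 25.2 and 137 TPM, and without replicate 3 its mean was 27.3 TPM. Of the 100 most variable symbols, 92 were highest in replicate 3.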

How the data were processed

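RNA sequencing counts of the 3 mock libraries were taken from 1 table in which the authors deposited raw read counts per gene symbol together with gene lengths. Per the labels' protocols, total RNA came from the RNeasy Mini Kit, followed by library preparation with the NEBNext Ultra RNA kit. The submitters' processing notes name GRCh38 as the build and list STAR 2.7.6a, Subread 2.0.1 with featureCounts, Trim Galore 0.6.6, DESeq2 1.30.0, FastQC 0.11.9 and bcl2fastq 2.20. Neither the strand setting nor the handling of multi-mapping reads is given in the sources used here. A kit of that name does not mark strand, whereas symbols wholly inside the exons of another with at least 3000 counts on the opposite strand had a median of only 0.0141% of its counts. This conflict was not resolved, so levels of symbols that overlap on opposite strands are uncertain. The table held 0 sample columns without a label.

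Here TPM were computed with Python 3.11.15, pandas 2.3.3 and numpy 2.4.6, with all 59653 symbols in the total. Of 1141 distinct symbols in 84 gene lists 1138 were found; GSTT1, RNY5 and CCAT1 were not used. The members and lists were chosen with earlier results of these data known. The rule for named genes took the label markers, the 15 symbols highest in mean TPM, the 10 highest in counts, the 10 with the largest CV, any member of an isozyme, receptor or paralog family, and in each list up to 8 on members with the highest mean TPM and up to 8 off members with the fewest counts. Spread was estimated with edgeR 4.0.16 in R 4.3.3 (estimateDisp, intercept only, TMM, mean count of at least 10). The scripts were tested on simulated counts. Some members of the lists are counted in the totals but are not reported here by name.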

Additional observations from a re-analysis of the deposited data

How the results depend on the processing

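The number of symbols on (12098) was 13503 at 0.5 TPM, 8632 at 5 TPM, 12936 with a mean of at least 1 TPM, 12268 at 1 CPM, 13204 without small noncoding and mitochondrial names in the total, 13128 without symbols under 300 bases, 12123 with TMM factors, and 12204 to 12459 with each replicate left out in turn. List members on (680) ranged from 569 at 5 TPM to 705 at 0.5 TPM, and from 680 to 683 with each replicate left out. An alternative added after seeing the data, without the 44 shared members, gave 666 of 1094. Single lists were less stable: of 84, the number on moved by over 1.5 times in 14 at 5 TPM, in 8 without small noncoding and mitochondrial names, in 6 without symbols under 300 bases, in 5 at 0.5 TPM, in 4 at 1 CPM, in 2 with the mean, in 3 without shared members, in 1 with TMM factors, and in 1 each without replicate 1 (T cell) and without replicate 2 (muscle). Levels of the 35 genes recomputed rose by a median of 1.96 times without small names and moved to 0.972 to 1.04 times with TMM factors. The biological coefficient of variation (10.4%) was 10.0% at a mean count of at least 100 and 8.32% to 11.9% with each replicate left out. No paired analysis was possible because the libraries form 1 group and no result comes from a test. Depth limits the call of short genes, where 3 counts can exceed 0.1 TPM.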

Other observations

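Nuclear receptors, which turn hormone and metabolite signals into transcription, were on for 14 of 22 members. RXRB (38.7, 37.6 and 42.3 TPM), the common partner of the family, and PPARD (25.4, 30.2 and 33.9 TPM), a fatty acid sensor, were the highest. ESR2, an estrogen receptor, stood at 6.11, 5.48 and 6.44 TPM, whereas ESR1, the other estrogen receptor, and RXRG had 0 counts. THRA (12.7, 12.9 and 15.1 TPM) exceeded THRB (7.91, 7.66 and 11.4 TPM) in each library without overlap of their ranges. NR3C1, the glucocorticoid receptor, was low at 0.756, 0.574 and 0.784 TPM, and PPARG had 0, 2 and 0 counts.

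GDF15, a stress-induced member of the TGF-beta family that was chosen after its values were seen, stood at 1431, 1642 and 1336 TPM (1469.7 ± 156). Among enzymes of ketone body metabolism, ACAT1 (63.4, 58.7 and 76.1 TPM) and OXCT1 (31.8, 39.4 and 51.1 TPM) were on, and OXCT2 was on but shared. Among checkpoint ligands, VSIR (6.55, 5.70 and 6.67 TPM), CD276 (2.81, 2.83 and 3.93 TPM) and CD47 (1.65, 1.39 and 2.28 TPM) were on, and PDCD1LG2 and VTCN1 had 0 counts.

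MIR223HG, the host of a myeloid microRNA, was on at 2.61, 1.99 and 4.87 TPM. It was chosen after its values were seen and was highest in replicate 3. ARRDC4, a paralog of TXNIP that responds to glucose as TXNIP does, stood at 2.29, 2.40 and 5.48 TPM and was also highest in replicate 3. It too was chosen after its values were seen. SRSF5, a splicing factor chosen in the same way, stood at 22.5, 30.2 and 55.7 TPM and was again highest in replicate 3.

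HBB, the adult beta globin, had 18478, 21488 and 11052 counts in a line usually described by its embryonic and fetal globins, and HBG2 exceeded it by only 1.32 ± 0.151 times with overlapping ranges. The source of this level was not tested.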
